A study of Mus musculus with 9 samples.

Results

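The genes of cholesterol and fatty acid synthesis were followed in sorted mouse kidney cells before and after ischemia-reperfusion injury. The 31 genes are a given list of symbols from these pathways, and all were found among the 55385 genes of the count table. By role they are 7 genes of the mevalonate steps, 11 of the sterol steps, 6 of sterol sensing and 7 of fatty acid synthesis. All 31 had enough reads to be tested, so none was lost to a filter on low values.

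RNA was measured in 9 libraries of tdTomato-positive cells, 3 a group and described as biological replicates, from males of 9 to 12 weeks and 25 to 30 g. The uninjured group held Slc34a1-labelled proximal tubule cells of Slc34a1IRES-CreERT2/+:R26RtdT/+ mice after tamoxifen. Slc34a1 makes a phosphate transporter specific to that tubule segment, and a tamoxifen-dependent Cre recombinase made from that locus switched on the red reporter tdTomato. The other groups came from Sox9IRES-CreERT2/+:R26RtdT/+ mice after bilateral kidney ischemia-reperfusion injury. Their reporter marks cells with Sox9, a transcription factor of injured and progenitor epithelia. The 48 h group had tamoxifen at the injury and was collected 48 h later. The d14 group had tamoxifen on days 10 and 12 and was collected on day 14. The question behind the design is what sets cells with lasting Sox9 apart from those that turned it on soon after injury. All mice carried 1 copy of the reporter and 1 Cre allele. Cre allele, injury and tamoxifen schedule differ together between the uninjured and the Sox9 groups and cannot be told apart. Between 48 h and d14, time and tamoxifen schedule likewise cannot be told apart. The sources do not say whether the uninjured mice were sham-operated.

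Cholesterol is built from acetyl-CoA, which is condensed to HMG-CoA, reduced to mevalonate and activated to isoprene units. Those units are joined to farnesyl diphosphate and then squalene, which is closed to lanosterol and trimmed in the sterol steps to cholesterol. Fatty acid synthesis starts from the same acetyl-CoA, made in the cytosol by ATP citrate lyase, and uses NADPH that malic enzyme helps to supply. Stearoyl-CoA desaturases and elongases then finish the chains. Both branches answer to the SREBP transcription factors. Scap carries them out of the endoplasmic reticulum when sterols are low, and the Insig proteins hold them back when sterols are plentiful. Proximal tubule cells draw most of their energy from the oxidation of fatty acids.

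Promoter sequence is shown for 5 enzymes. Acat2, Hmgcs1, Mvd and Ebp shared one pattern of calls (lower at d14 against both other groups). Sc5d had another (lower in both Sox9 groups against uninjured cells and not called between them). Idi1, Lss, Nsdhl and Insig1 had that same pattern as Sc5d, and their sequences are not printed. With libraries scaled by size alone, the d14 calls of Hmgcs1, Ebp and Sc5d were lost and those of Acat2 and Mvd kept. The stretches are the 250 bases before the RefSeq start, in build GRCm38.p6, each read 5′ to 3′ on the gene's strand. For Acat2 the last 22 bases, which lie inside a GENCODE exon, are left out. Capitals mark the sterol response element TCACNCCAC and the CCAAT box on either strand (read as ATTGG on the other strand), and Acat2 holds neither. Acat2 lies at chr17:12960748-12960975 (minus strand), Hmgcs1 at chr13:119690101-119690350 (plus strand), Mvd at chr8:122443423-122443672 (minus), Ebp at chrX:8193513-8193762 (minus) and Sc5d at chr9:42264301-42264550 (minus).
Acat2: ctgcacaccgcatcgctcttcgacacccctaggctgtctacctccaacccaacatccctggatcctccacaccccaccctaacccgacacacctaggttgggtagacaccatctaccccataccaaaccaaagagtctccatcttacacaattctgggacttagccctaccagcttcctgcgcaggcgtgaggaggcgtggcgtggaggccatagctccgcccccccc
Hmgcs1: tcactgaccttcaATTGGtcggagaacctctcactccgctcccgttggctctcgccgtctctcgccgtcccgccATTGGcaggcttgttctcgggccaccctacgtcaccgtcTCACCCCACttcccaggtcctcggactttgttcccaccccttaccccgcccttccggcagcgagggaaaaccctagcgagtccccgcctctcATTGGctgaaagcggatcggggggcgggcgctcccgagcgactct
Mvd: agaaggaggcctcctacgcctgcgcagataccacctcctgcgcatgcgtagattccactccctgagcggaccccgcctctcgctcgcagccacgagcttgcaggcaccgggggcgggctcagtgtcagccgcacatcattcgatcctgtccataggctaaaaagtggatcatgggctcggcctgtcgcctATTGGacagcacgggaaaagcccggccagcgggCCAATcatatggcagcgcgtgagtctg
Ebp: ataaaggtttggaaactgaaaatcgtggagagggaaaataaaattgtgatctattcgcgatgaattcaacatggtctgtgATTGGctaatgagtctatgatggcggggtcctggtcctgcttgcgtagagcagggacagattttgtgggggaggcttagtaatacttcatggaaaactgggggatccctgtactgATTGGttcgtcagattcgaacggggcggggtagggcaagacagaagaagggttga
Sc5d: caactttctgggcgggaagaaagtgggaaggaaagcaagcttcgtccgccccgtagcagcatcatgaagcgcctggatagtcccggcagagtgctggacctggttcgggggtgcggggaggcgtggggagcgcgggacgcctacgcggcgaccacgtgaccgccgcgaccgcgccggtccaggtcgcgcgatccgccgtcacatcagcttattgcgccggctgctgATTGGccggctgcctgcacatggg

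RefSeq windows of 300 bases, from 250 before to 50 after a start, were at hand for 25 of the 31 genes. TCACNCCAC was found in the window of 1 of the 25 genes, Hmgcs1, 137 bases before the start, and in 1.24% of all 32851 windows. CCAAT was found for 21 of 25 genes and in 64.7% of their 34 windows, against 37.4% of all windows. The GC box GGGCGG was also found for 21 of 25 genes and in 73.5% of their windows, against 35.7% of all. The E-box CACGTG was found for 5 of 25 genes, Dhcr7, Hsd17b7, Insig1, Sc5d and Scap, and in 17.6% of member windows against 7.15% of all. All motifs were searched on both strands, and matches of different motifs overlapped in 0 of the 34 windows. These matches are letters in a window and do not show binding.

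The uninjured libraries held 31585507 to 51631204 counts, the 48 h libraries 8036054 to 23794029 and the d14 libraries 19239354 to 30414758, with 48 h replicate 2 the shallowest. Mitochondrial genes took 25.1 to 29.2% (uninjured), 32.7 to 39.2% (48 h) and 15.2 to 25.2% (d14) of the counts. The 50 most abundant genes of a library took 43.0 to 46.8%, 49.8 to 51.6% and 26.3 to 38.3%. With mitochondrial genes left out, 1 member was called higher and 12 lower at 48 h, 4 and 11 at d14, and 8 and 5 between the Sox9 groups. Of all 15473 genes tested in that setting, 2626 were higher and 2054 lower at 48 h. At d14 these numbers were 3669 and 3553, and between the Sox9 groups 2490 and 2655. Values are CPM, counts relative to the total of a library after TMM, a correction of library size. Sox9 itself had 0.274 ± 0.318 CPM (SD, n = 3) before injury, against 14.9 ± 7.28 (48 h) and 33.3 ± 5.07 (d14). The summed level of 12 proximal tubule markers was 17960 to 19630 CPM in the uninjured libraries, 5765 to 11530 at 48 h and 3073 to 4304 at d14. Loop of Henle markers (5 genes) summed to 299.6 to 369, 818 to 1057 and 2982 to 5284 CPM, and distal tubule markers (5 genes) to 78.7 to 125, 239.9 to 397 and 2172 to 3682 CPM. At d14, 11 of 12 proximal markers were lower and none higher than in uninjured cells, while 4 of 5 loop and 5 of 5 distal markers were higher. The remaining loop marker, Cldn10, was lower (154 ± 2.96, 92.2 ± 29.55 and 49.9 ± 6.52 CPM over the 3 groups). At 48 h, 8 of 12 proximal markers were lower, and neutrophil markers (7 genes) summed to 113 to 343 CPM against 2.80 to 8.0 in uninjured cells. Endothelial markers (8 genes) reached 668 CPM in 48 h replicate 1 and 77.3 to 131 in the other 48 h libraries. Macrophage markers (9 genes) summed to 25.05 to 32.3 CPM in uninjured libraries, 73.0 to 283.5 at 48 h and 44.5 to 113 at d14. Of the 8 of them tested, 3 were higher at 48 h and 5 at d14. Principal cell markers summed to 55.1 to 68.2, 228.5 to 247 and 257 to 357 CPM, with 5 of 6 higher in each Sox9 group. Intercalated cell markers summed to 16.6 to 25.9, 67.6 to 87.3 and 204 to 229 CPM, with 4 of 6 higher at 48 h and 5 of 6 at d14. The 7 fibroblast and pericyte markers summed to 19.1 CPM or less, and the 5 podocyte markers to 145 or less. The 8 adipocyte markers summed to 100 to 113, 101.1 to 197 and 80.1 to 101.5 CPM, with the 197 in 48 h replicate 2. Most of each sum came from Pnpla2 and Lipe. Pnpla2 stood at 83.9 ± 6.67, 98.0 ± 53.3 and 79.6 ± 10.3 CPM (158.7 in 48 h replicate 2), and Lipe at 20.7 ± 0.99, 20.15 ± 7.83 and 11.2 ± 1.54. The defining Lep and Cfd were at 0 in all 9 libraries, and Adipoq (0.287 CPM) and Plin1 (0.575) were seen in 48 h replicate 2 alone. Cidec stood at 5.75 CPM there and at 0.369 in 48 h replicate 3, and Fabp4 reached 42.2 in 48 h replicate 1. The part of these cell types in the results below was not tested, and in sorted bulk RNA fewer cells of a type and less RNA per cell cannot be told apart.

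**Figure D1:**
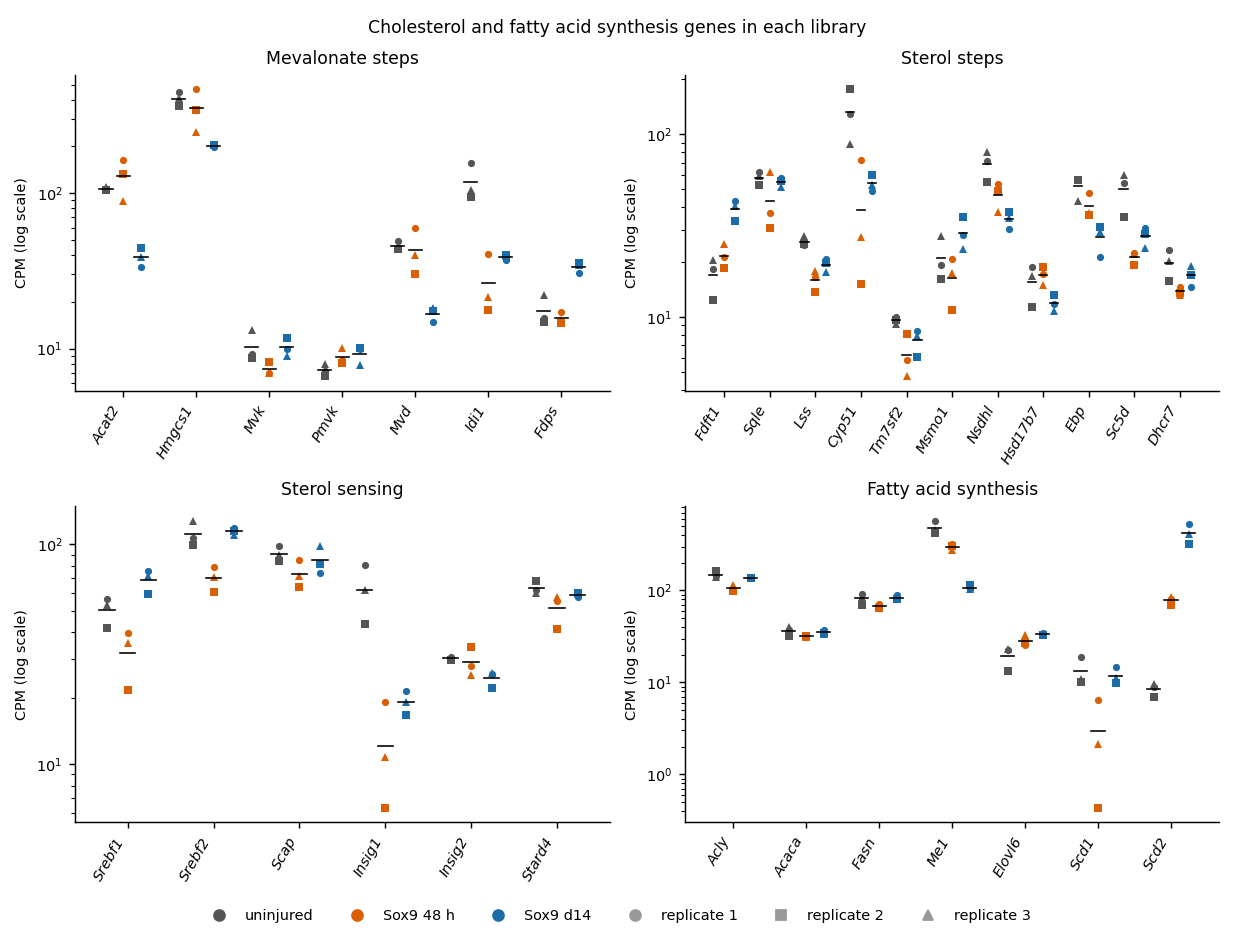
CPM of the 31 genes in each library on log axes, by role. Points are libraries (colour the group, shape the replicate number) and short lines are group means of 3. Scd2 stands between 6.99 and 9.57 CPM in uninjured cells and between 319.5 and 528 at d14, and Scd1 is lowest in 48 h replicate 2.

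Of the 31 genes, 25 had a negative log2 fold change at 48 h against uninjured cells under either scaling of the libraries, while at d14 22 did with TMM and 10 with library size alone. The desaturase Scd2 had the largest rise in both Sox9 groups. At 48 h, 12 genes fell and 1 rose (edgeR quasi-likelihood test, Benjamini-Hochberg adjusted p under 0.05), and 18 did not pass. Of all 15519 genes tested, 29.1% passed in this comparison, 17.4% higher and 11.7% lower. The median log2 fold change of the 31 was -0.36, against 0.02 for all genes tested. The genes that fell were Idi1, Lss, Cyp51, Nsdhl, Sc5d, Dhcr7, Srebf1, Srebf2, Insig1, Acly, Me1 and Scd1. All 3 libraries at 48 h lay below all uninjured libraries for 16 genes (20.8% of all genes) and above for 3 (21.5% of all). Without uninjured replicate 1 or without uninjured replicate 3 the number lower was 7.

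At d14 against uninjured cells, 10 genes fell and 4 rose, and 17 did not pass. This comparison called 45.8% of all genes, 25.1% higher and 20.7% lower, so the members' share called was close to that of all genes. The median of the 31 was -0.16, against 0.06 for all. The genes that rose were Fdps, Fdft1, Elovl6 and Scd2. Those that fell were Acat2, Hmgcs1, Mvd, Idi1, Lss, Nsdhl, Ebp, Sc5d, Insig1 and Me1. With libraries scaled by size alone, which moved the median of all genes by 0.57, 13 members were higher and 6 lower. On that scale 7315 of all 15519 genes were higher and 1417 lower. The 4 genes that rose were called there too, and of the 10 that fell Hmgcs1, Lss, Ebp and Sc5d were not. All d14 libraries lay below the uninjured ones for 15 genes (28.9% of all genes) and above for 5 (34.4% of all).

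From 48 h to d14, 8 genes were higher and 5 lower, and 18 did not pass. Of all genes, 33.1% were called, 16.8% higher and 16.3% lower. The median of the 31 was 0.29, against 0.05 for all. The higher genes were Fdps, Fdft1, Msmo1, Srebf1, Srebf2, Acly, Scd1 and Scd2, and the lower ones Acat2, Hmgcs1, Mvd, Ebp and Me1. By library size alone 22 were higher and 3 lower (6812 and 934 of all 15519 genes), and Hmgcs1 and Ebp were not called. Libraries did not overlap for 13 genes higher (26.7% of all) and 7 lower (20.6% of all). Without d14 replicate 1 or without d14 replicate 2 the number higher was 5. The 3 comparisons share libraries, so their values are set side by side and no overlap between them is tested. Only Scd2 was called higher and only Me1 lower in all 3, and 10 of the 31 genes were called in none. The shares of all genes called in all 3 or in none were not computed, so these counts have no baseline.

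**Figure D2:**
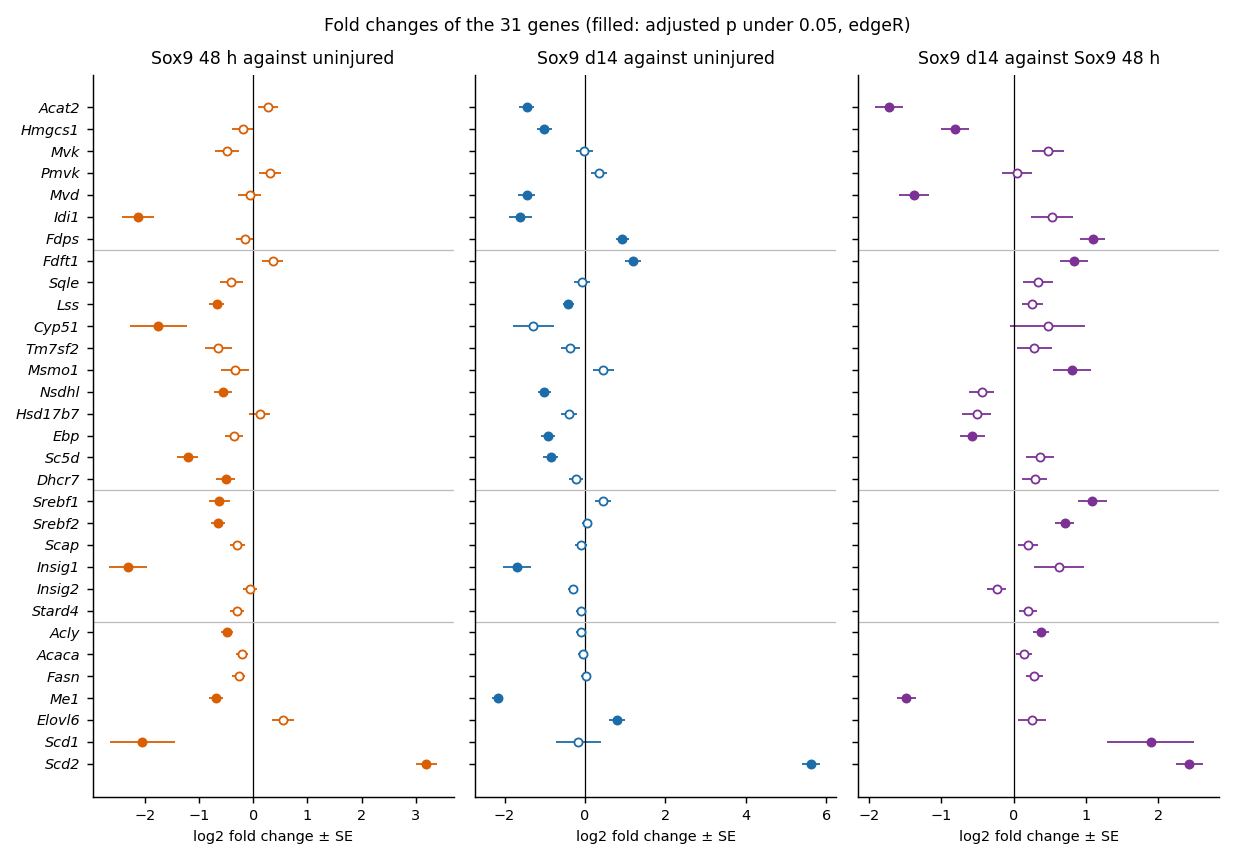
Log2 fold changes with their SE for the 31 genes in the 3 comparisons, in order of role from mevalonate steps at the top to fatty acid synthesis at the bottom (edgeR, 3 libraries a group). Filled points passed an adjusted p of 0.05. Scd2 is farthest to the right in each panel.

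The 7 mevalonate genes split in sign along the pathway at d14. The early enzymes Acat2, Hmgcs1 (not called with libraries scaled by size alone), Mvd and Idi1 fell against uninjured cells, the last enzyme Fdps rose, and the kinases Mvk and Pmvk did not pass. The median over the 7 was -1.01. At 48 h only Idi1 was called.

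Acat2 (chromosome 17 from 12942890 to 12960747, GRCm38) encodes a cytosolic thiolase that joins acetyl-CoA units. It stood at 107, 105 and 109 CPM in the uninjured libraries, at 164, 133 and 89.8 at 48 h, and at 33.6, 44.7 and 38.9 at d14. The d14 libraries lay below all others, while 48 h libraries fell on both sides of the uninjured ones. The log2 fold change at d14 was -1.45 ± 0.19 (SE) against uninjured cells (adjusted p = 9.93e-05) and -1.72 ± 0.20 against 48 h (adjusted p = 0.000118). At 48 h it was 0.27 ± 0.19 (adjusted p = 0.319), and 0.47 (adjusted p = 0.0424) without 48 h replicate 3. Of the 50-base stretches in its transcripts, 39.1% also occur in Acat3, a neighbouring copy that stood at 18.2 ± 0.688, 90.6 ± 41.1 and 15.7 ± 2.45 CPM, so the division of reads between them is uncertain.

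Hmgcs1 (chromosome 13 from 119690379 to 119708260), whose promoter is printed above, encodes HMG-CoA synthase. It stood at 449, 363 and 408 CPM in uninjured cells, at 469.6, 343.5 and 249 at 48 h, and at 198, 204.5 and 203 at d14. The 48 h libraries overlapped the uninjured ones and spread widely, and the d14 libraries lay close together and below all others. At d14 it was lower by a log2 fold change of -1.01 ± 0.19 against uninjured cells (adjusted p = 0.00136) and -0.81 ± 0.19 against 48 h (adjusted p = 0.00899). At 48 h the value was -0.20 ± 0.19 (adjusted p = 0.48), and -0.46 (adjusted p = 0.0444) without 48 h replicate 1. Of its 50-base stretches 11.6% occur in other genes, mostly in Gm48342, which overlaps it on the opposite strand.

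Mvd encodes mevalonate diphosphate decarboxylase, which makes isopentenyl diphosphate. Its levels were 49.1, 43.8 and 44.8 CPM in uninjured cells, 60.1, 30.0 and 40.0 at 48 h and 14.7, 17.5 and 18.2 at d14. All d14 libraries were lower than all others. Its log2 fold change was -1.45 ± 0.21 at d14 against uninjured cells (adjusted p = 0.000197), -1.38 ± 0.21 against 48 h (adjusted p = 0.000789) and -0.07 ± 0.21 at 48 h (adjusted p = 0.83).

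Idi1 (chromosome 13 from 8885501 to 8892451) encodes the isomerase of isopentenyl diphosphate. It stood at 156, 94.4 and 105.5 CPM in uninjured cells, at 40.6, 17.7 and 21.4 at 48 h, and at 37.1, 40.1 and 39.2 at d14. Every Sox9 library lay below every uninjured one, and 48 h and d14 overlapped. It fell by 2.14 ± 0.30 on the log2 scale at 48 h (adjusted p = 0.000686) and by 1.61 ± 0.29 at d14 (adjusted p = 0.00129). From 48 h to d14 the value was 0.53 ± 0.29 (adjusted p = 0.19), and 0.98 (adjusted p = 0.00575) without 48 h replicate 1. Of its 50-base stretches 25.3% also occur in other genes, mostly in Gm13502, which stood at 2.14 CPM or less in each group mean.

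Fdps, which encodes farnesyl diphosphate synthase, went the other way. Its libraries were at 15.7, 14.8 and 22.2 CPM in uninjured cells, 17.3, 14.5 and 15.2 at 48 h and 30.8, 35.4 and 34.3 at d14. The d14 libraries were above all others, and the other groups overlapped. The rise at d14 was 0.93 ± 0.17 against uninjured cells (adjusted p = 0.000841) and 1.09 ± 0.17 against 48 h (adjusted p = 0.000844). Of its stretches 26.2% occur in other genes, mostly in Gm43738, which overlaps it on the same strand and was at 0 in all 9 libraries. Mvk, which encodes mevalonate kinase, stood at 10.3 ± 2.45, 7.37 ± 0.712 and 10.2 ± 1.38 CPM, and Pmvk, which encodes phosphomevalonate kinase, at 7.24 ± 0.676, 8.89 ± 1.11 and 9.25 ± 1.25 CPM. Neither passed in any comparison, the smallest adjusted p being 0.122 for Mvk at 48 h.

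Among the 11 sterol genes, 5 fell and none rose at 48 h, and 4 fell and 1 rose at d14, with medians of -0.52 and -0.40. Of all genes tested, 11.7% were lower and 17.4% higher at 48 h, and 20.7% and 25.1% at d14. The gene that rose at d14 was Fdft1, the enzyme that opens the sterol branch. Lss, Nsdhl and Sc5d fell in both Sox9 groups, Cyp51 and Dhcr7 were called at 48 h alone, and Ebp at d14. By library size alone, Nsdhl was the one sterol gene of these whose fall at d14 kept its call.

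Fdft1 (chromosome 14 from 63145150 to 63179578) encodes squalene synthase, which joins units of farnesyl diphosphate. Its libraries were at 18.3, 12.4 and 20.5 CPM in uninjured cells, 21.3, 18.5 and 25.2 at 48 h and 43.0, 33.4 and 40.8 at d14. All d14 libraries stood above all others, and uninjured and 48 h libraries overlapped. The log2 fold change was 1.19 ± 0.19 at d14 against uninjured cells (adjusted p = 0.000404), 0.84 ± 0.19 against 48 h (adjusted p = 0.00741) and 0.35 ± 0.19 at 48 h (adjusted p = 0.2). Its transcripts overlap Ctsb on the opposite strand, and 26.5% of its stretches occur in other genes. Ctsb, which holds 17.2% of the stretches, stood at 520 ± 29.1, 932 ± 159 and 535 ± 39.3 CPM. The division of reads between Fdft1 and Ctsb is uncertain, and its part in the Fdft1 values was not tested.

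Sqle, the squalene epoxidase of the next step, was called in no comparison. It stood at 58.0 ± 4.79, 43.3 ± 16.5 and 55.0 ± 3.04 CPM. Its 48 h libraries were split, with 37.0 and 30.8 CPM in replicates 1 and 2 and 62.0 in replicate 3. Without replicate 3 the log2 fold change at 48 h was -0.77 (adjusted p = 0.00303), against -0.41 ± 0.21 (adjusted p = 0.172) with all libraries. Without it the change from 48 h to d14 was 0.70 (adjusted p = 0.00408), against 0.33 ± 0.21 (adjusted p = 0.252).

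Lss encodes lanosterol synthase, which closes the sterol rings. It fell from 24.8, 25.0 and 27.7 CPM to 16.5, 13.8 and 17.9 at 48 h and stood at 20.8, 19.7 and 17.7 at d14. No Sox9 library reached the uninjured range. The change was -0.68 ± 0.14 at 48 h (adjusted p = 0.00453) and -0.42 ± 0.14 at d14 (adjusted p = 0.0282). The d14 call was lost without uninjured replicate 1 or 3 or without d14 replicate 2 or 3, with adjusted p from 0.0603 to 0.108, and its sign turned to 0.16 (adjusted p = 0.478) when libraries were scaled by size alone.

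Cyp51 encodes lanosterol demethylase and varied widely between libraries of a group. Its levels were 130, 177 and 88.5 CPM in uninjured cells, 72.8, 15.1 and 27.3 at 48 h and 49.2, 59.6 and 53.0 at d14. Both Sox9 groups lay below the uninjured libraries. The change at 48 h was -1.76 ± 0.52 (adjusted p = 0.0385), and -2.60 (adjusted p = 0.000528) without 48 h replicate 1. The call was lost when any single uninjured or d14 library or 48 h replicate 3 was left out, with adjusted p from 0.0519 to 0.122. At d14 the change was -1.29 ± 0.51 (adjusted p = 0.0734), and the adjusted p was 0.00364 and 0.0244 without 48 h replicate 1 or 2. From 48 h to d14 the change was 0.47 ± 0.51 (adjusted p = 0.523), and 1.31 (adjusted p = 0.0158) without 48 h replicate 1.

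Nsdhl (chromosome X from 72918557 to 72958514), a sterol dehydrogenase that takes part in removing methyl groups, stood at 71.6, 55.2 and 80.3 CPM in uninjured cells. It was at 53.3, 48.9 and 37.8 CPM at 48 h and at 30.2, 37.5 and 35.0 at d14. With TMM its groups formed a descending series in which every d14 library lay below every 48 h library. By library size alone, the log2 fold change from 48 h to d14 was 0.12, so that step was not a fall. With TMM the change was -0.57 ± 0.17 at 48 h (adjusted p = 0.0263) and -1.01 ± 0.17 at d14 (adjusted p = 0.000493), and between them -0.44 ± 0.17 (adjusted p = 0.065). The 48 h call was lost without uninjured replicate 1 or 3 or without 48 h replicate 3 (adjusted p from 0.0784 to 0.105), and the last value passed without uninjured replicate 2 or 48 h replicate 3 (adjusted p = 0.0343 and 0.0272).

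Sc5d, which encodes the sterol desaturase of the late steps, stood at 54.4, 35.4 and 60.2 CPM in uninjured cells. It was at 22.5, 19.4 and 22.3 CPM at 48 h and at 30.8, 28.5 and 23.8 at d14. Every Sox9 library was lower than every uninjured one. The change was -1.22 ± 0.19 at 48 h (adjusted p = 0.0008) and -0.85 ± 0.18 at d14 (adjusted p = 0.00284). The 48 h call was kept in all 18 alternatives.

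Ebp, the sterol isomerase, stood at 56.6, 56.2 and 43.1 CPM in uninjured cells, 48.0, 36.4 and 36.9 at 48 h and 21.4, 31.1 and 29.3 at d14. The d14 libraries were below all others. It changed by -0.93 ± 0.17 at d14 against uninjured cells (adjusted p = 0.00113) and by -0.57 ± 0.18 against 48 h (adjusted p = 0.0283). The second call was lost without 48 h replicate 1 or without d14 replicate 1 or 3 (adjusted p = 0.103, 0.106 and 0.0553).

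Dhcr7, the reductase that completes cholesterol from its precursor, stood at 19.8 ± 3.81, 13.8 ± 0.763 and 16.9 ± 2.23 CPM. Its call at 48 h (-0.52 ± 0.18, adjusted p = 0.0479) held among the single-library omissions only without uninjured replicate 2, and the other omissions gave an adjusted p of 0.0534 to 0.198. Msmo1, a methylsterol oxidase, stood at 21.1 ± 6.10, 16.4 ± 5.02 and 29.0 ± 6.0 CPM, and was higher at d14 than at 48 h by 0.80 ± 0.26 (adjusted p = 0.0377). That call was lost without uninjured replicate 1, without 48 h replicate 2 or 3 and without d14 replicate 1 or 2 (adjusted p from 0.0525 to 0.128). Tm7sf2, a sterol reductase, stood at 9.61 ± 0.426, 6.21 ± 1.68 and 7.46 ± 1.24 CPM and was called in no comparison (-0.65 ± 0.25 at 48 h, adjusted p = 0.0698, and 0.0212 without 48 h replicate 2). Hsd17b7, a ketosterol reductase, stood at 15.7 ± 3.83, 17.0 ± 1.93 and 11.9 ± 1.16 CPM, with an adjusted p of 0.125 at d14 against uninjured cells and 0.0191 without uninjured replicate 2, and of 0.0747 and 0.0319 against 48 h.

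The 6 sterol-sensing genes all had a negative log2 fold change at 48 h, as did 7559 of all 15519 genes tested. Of the 6, 3 were called lower (11.7% of all genes). The 48 h libraries of Insig2 (-0.06) and Scap (-0.30) overlapped the uninjured ones. At d14 only Insig1 was called, lower. Medians were -0.47 at 48 h and -0.10 at d14.

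Insig1 (chromosome 5 from 28071363 to 28078662) encodes the protein that retains Scap in the endoplasmic reticulum, and it is itself a target of the SREBPs. It stood at 81.0, 43.4 and 61.8 CPM in uninjured cells, at 19.2, 6.32 and 10.7 at 48 h and at 21.6, 16.8 and 19.3 at d14. The lowest uninjured library stood above the highest Sox9 library, and 48 h and d14 overlapped. It fell by 2.32 ± 0.36 at 48 h (adjusted p = 0.00126) and by 1.69 ± 0.34 at d14 (adjusted p = 0.00269). Between 48 h and d14 the value was 0.63 ± 0.35 (adjusted p = 0.198), and 1.12 (adjusted p = 0.0188) without 48 h replicate 1. Its relative Insig2, which serves the same anchoring role, stood at 30.3 ± 0.457, 29.2 ± 4.52 and 24.7 ± 2.12 CPM and was called in no comparison (adjusted p = 0.0864 at d14, and 0.0434 without 48 h replicate 2).

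Srebf2 encodes the SREBP best known for sterol genes. It fell from 107, 98.9 and 128 CPM to 78.7, 60.8 and 71.4 at 48 h, and stood at 119, 116 and 110.2 at d14. The 48 h libraries were below all others, and the uninjured and d14 libraries overlapped. The change was -0.66 ± 0.13 at 48 h (adjusted p = 0.00345), 0.71 ± 0.13 from 48 h to d14 (adjusted p = 0.00232) and 0.04 ± 0.13 at d14 against uninjured cells (adjusted p = 0.823). By library size alone the last value was 0.62, and Srebf2 was called higher there.

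Srebf1, whose products favour fatty acid genes, stood at 56.4, 41.6 and 53.0 CPM in uninjured cells, 39.4, 21.8 and 35.5 at 48 h and 75.4, 59.8 and 72.0 at d14. The 3 groups did not overlap, with d14 the highest and 48 h the lowest. It rose from 48 h to d14 by 1.08 ± 0.20 (adjusted p = 0.00241). The fall at 48 h (-0.63 ± 0.20, adjusted p = 0.0363) was lost without uninjured replicate 1 or 3, without 48 h replicate 2 or 3 and without d14 replicate 3 (adjusted p from 0.0539 to 0.122). At d14 against uninjured cells the value was 0.46 ± 0.20 (adjusted p = 0.0812), and its adjusted p was 0.0174 without 48 h replicate 2.

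Scap, the escort of the SREBPs, stood at 90.7 ± 7.0, 73.5 ± 10.3 and 84.5 ± 12.5 CPM. Stard4, a carrier of cholesterol between membranes, stood at 63.5 ± 3.96, 51.4 ± 8.87 and 59.2 ± 1.08 CPM. Neither was called in any comparison, and their smallest adjusted p was 0.106 for Stard4 at 48 h.

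The 7 fatty acid genes showed the widest range. Scd2 rose many-fold, Me1 fell in each comparison, Acly, Me1 and Scd1 were lower at 48 h, and Acaca and Fasn, which carry out the committed step and the chain assembly, were called in none. Medians were -0.27 at 48 h and -0.06 at d14.

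Scd2 (chromosome 19 from 44293674 to 44306864) encodes a stearoyl-CoA desaturase, which places a double bond into saturated chains. It stood at 8.90, 6.99 and 9.57 CPM in uninjured cells, at 80.0, 70.3 and 84.2 at 48 h and at 528, 319.5 and 416 at d14. The groups were far apart and in the order uninjured, 48 h, d14. The log2 fold change was 3.20 ± 0.20 at 48 h (adjusted p = 1.64e-06), 5.63 ± 0.22 at d14 (adjusted p = 2.54e-08) and 2.43 ± 0.19 between them (adjusted p = 1.82e-05). As ratios of group means these are 9.21, 49.6 and 5.39. All 18 alternatives kept the 3 calls, with values of 3.07 to 3.29 at 48 h and 5.43 to 6.22 at d14.

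Scd1 (chromosome 19 from 44394455 to 44407879), its neighbour on the opposite strand and the form best known from liver and fat, did not follow. It stood at 18.8, 10.2 and 10.9 CPM in uninjured cells, 6.39, 0.431 and 2.12 at 48 h and 14.5, 9.94 and 11.2 at d14, where 0.431 CPM is 3 counts. The 48 h libraries were below all others, and uninjured and d14 overlapped. The change was -2.06 ± 0.60 at 48 h (adjusted p = 0.0297), -0.16 ± 0.55 at d14 (adjusted p = 0.844) and 1.89 ± 0.60 between the Sox9 groups (adjusted p = 0.037). Without 48 h replicate 1 the fall at 48 h was -3.14 (adjusted p = 0.000924). It was lost without uninjured replicate 1 or 3 or 48 h replicate 3 (adjusted p = 0.0995, 0.0564 and 0.106). The change between the Sox9 groups was lost without uninjured replicate 2 or 3, 48 h replicate 3 or any single d14 library (adjusted p from 0.0541 to 0.116).

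Per kilobase of exon, so that the genes can be compared, Scd2 made up 29.8 to 44.1% of the sum of both desaturases in uninjured libraries. The share was 91.8 to 99.3% at 48 h and 96.6 to 97.1% at d14, with no overlap with uninjured libraries. Of the 50-base stretches, 4.56% of those of Scd1 and 3.97% of those of Scd2 occur in another gene. By level per kilobase, Scd2 was the last of the 31 genes in uninjured cells (1.55 ± 0.245 CPM per kb), the eighth at 48 h (14.3 ± 1.30) and the first at d14 (77.0 ± 19.1). The next at d14 was Hmgcs1 at 44.0 ± 0.729 CPM per kb.

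**Figure D3:**
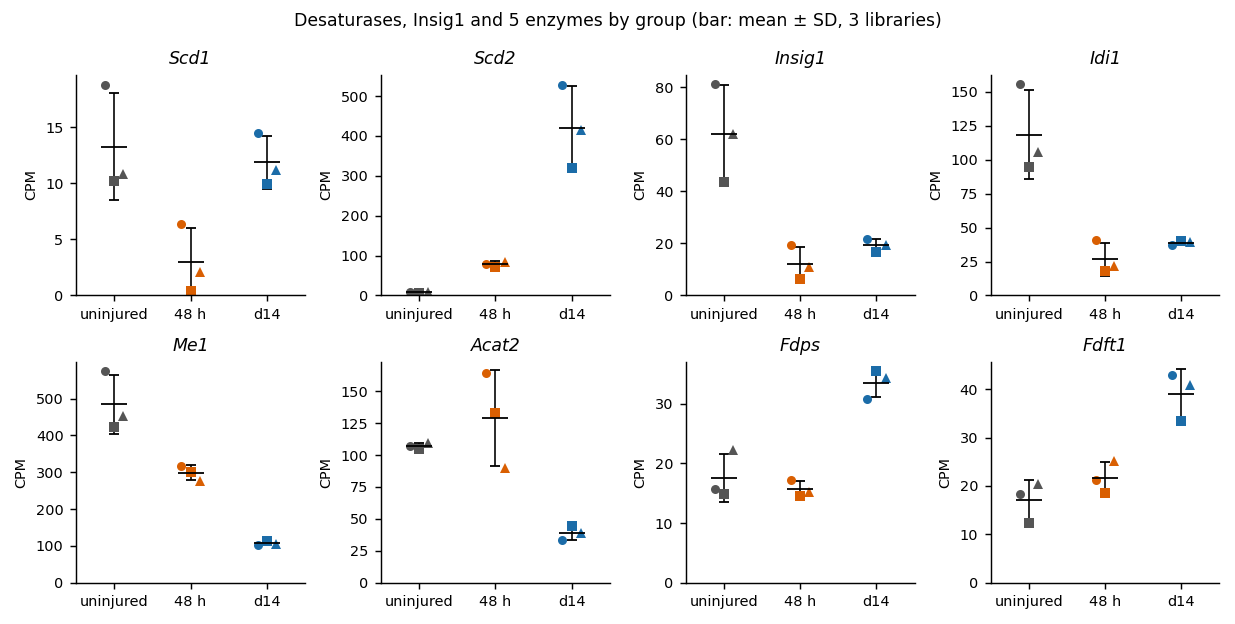
CPM in each library for 8 genes, with mean and SD over 3 libraries a group; circles, squares and triangles are replicates 1, 2 and 3. Scd2 climbs from uninjured to 48 h to d14, Me1 descends in the same order, and Fdps and Fdft1 stand highest at d14.

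Me1 (chromosome 9 from 86581371 to 86695953) encodes the cytosolic malic enzyme and was the most abundant of the 31 genes per kilobase in uninjured cells (126 ± 21.03 CPM per kb). It stood at 576, 423 and 454 CPM there, at 318, 302 and 277 at 48 h and at 103, 114 and 104 at d14. The 3 groups did not overlap. The change was -0.70 ± 0.13 at 48 h (adjusted p = 0.00294), -2.18 ± 0.14 at d14 (adjusted p = 4.83e-07) and -1.48 ± 0.14 between them (adjusted p = 4.27e-05). All 18 alternatives kept these calls. Of its stretches 28.3% occur in other genes, mostly in Gm7049, which stood at 1.09 CPM or less in each group mean.

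Acly, the ATP citrate lyase, stood at 144.5, 162 and 141 CPM in uninjured cells, 105, 97.9 and 116 at 48 h and 139, 138 and 137 at d14. The 48 h libraries were below all others, and the d14 libraries lay just below the uninjured ones. The change was -0.49 ± 0.11 at 48 h (adjusted p = 0.00613), 0.38 ± 0.11 from 48 h to d14 (adjusted p = 0.0193) and -0.11 ± 0.11 at d14 against uninjured cells (adjusted p = 0.439). The middle call was lost without any single d14 library (adjusted p = 0.0514 to 0.0541).

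Elovl6, the elongase that acts after the synthase, stood at 22.4, 13.2 and 23.0 CPM in uninjured cells, 25.4, 26.9 and 33.2 at 48 h and 34.8, 33.1 and 34.0 at d14. The Sox9 libraries were all above the uninjured ones. It rose at d14 by 0.79 ± 0.19 (adjusted p = 0.00596), and at 48 h the value was 0.54 ± 0.20 (adjusted p = 0.0588). Fasn, the fatty acid synthase, stood at 82.6 ± 11.4, 68.5 ± 3.38 and 83.5 ± 5.54 CPM, and Acaca, the acetyl-CoA carboxylase, at 36.5 ± 3.75, 31.7 ± 0.302 and 35.0 ± 1.55 CPM. Their log2 fold changes with TMM lay between -0.27 and 0.29 in all 3 comparisons. Fasn at 48 h had an adjusted p of 0.12, and 0.0391 without uninjured replicate 2. Of the 50-base stretches of Acaca 30.4% occur in other genes, mostly in Gm5182, which stood at 0.52 CPM or less in each group mean.

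Other genes of these pathways were read from lists of their own. Of 24 genes of cholesterol uptake, export and handling, 3 rose and 3 fell at 48 h (29.1% of all genes were called), and 5 rose and 5 fell at d14 (45.8% of all). The share called was thus below that of all genes in both. From 48 h to d14, 5 were higher and 6 lower (33.1% of all). Scarb1, a lipoprotein receptor, stood at 2.196 ± 0.248, 13.7 ± 7.04 and 24.4 ± 2.45 CPM, and rose by 2.67 ± 0.35 at 48 h (adjusted p = 0.000298) and 3.47 ± 0.36 at d14 (adjusted p = 1.64e-05). Abcg1, a sterol exporter, and Lrp8, a lipoprotein receptor, rose at 48 h by 3.38 ± 0.50 and 4.24 ± 0.83 (adjusted p = 0.0006 and 0.00323). Lipa, the lysosomal lipase that frees cholesterol, fell at d14 by 1.79 ± 0.14 (adjusted p = 2.3e-06). Erlin1, a protein of the endoplasmic reticulum, fell at d14 by 1.56 ± 0.16 (adjusted p = 1.22e-05). Gramd1b, a carrier of cholesterol, fell by 0.63 ± 0.13 at 48 h (adjusted p = 0.00465) and by 1.28 ± 0.13 at d14 (adjusted p = 1.61e-05). From 48 h to d14, Abca1, the exporter of cholesterol to lipoproteins, was higher by 1.55 ± 0.19 (adjusted p = 0.000164), and Lipa, Erlin1 and the sterol-sensing receptor Nr1h3 were lower, with changes of -1.43, -0.95 and -1.38.

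Of 25 tested genes of other fatty acid and lipid steps, 6 rose and 5 fell at 48 h, 5 rose and 15 fell at d14, and 1 was higher and 12 lower at d14 than at 48 h, against the same shares of all genes (29.1%, 45.8% and 33.1%). Fads2, a desaturase of polyunsaturated chains, fell by 1.34 ± 0.16 at 48 h (adjusted p = 0.000165) and by 1.91 ± 0.17 at d14 (adjusted p = 4.02e-06), opposite to Scd2. At 48 h the glucose-responsive factor Mlxipl also fell, by 1.28 ± 0.22 (adjusted p = 0.00155), and its relative Mlxip and the elongase Elovl7 rose by 0.78 ± 0.14 and 0.55 ± 0.12 (adjusted p = 0.0019 and 0.00628). At d14 Fads3 fell by 1.84 ± 0.16 (adjusted p = 4.88e-06), Mlycd, which breaks down malonyl-CoA, by 1.72 ± 0.16 (adjusted p = 5.66e-06) and Dgat2, which makes triglycerides, by 2.25 ± 0.22 (adjusted p = 1.27e-05). From 48 h to d14 Mlycd, Elovl5, Dgat2 and Fads3 were lower, with changes of -1.54, -1.03, -1.87 and -1.24.

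The libraries of a group did not differ evenly across the 31 genes. Uninjured replicate 2 had the lowest value of its group for 25 of the 31 genes, against 37.1% of all genes tested. At 48 h, replicate 1 was the highest for 18 of the 31 (35.3% of all genes) and replicate 2 the lowest for 20 (43.7% of all). The coefficient of variation of the 31 genes had a median of 15.4% (uninjured), 15.5% (48 h) and 10.9% (d14), against 14.3%, 24.1% and 14.7% for all genes. Within the 48 h group, replicate 1 also had the most proximal tubule and the most endothelial transcripts, and replicate 2 the fewest counts. Their part in the spread was not tested.

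The scaling of libraries moved the d14 values. Scaled by library size alone, the all-gene median of the log2 fold changes moved by 0.57 at d14 against uninjured cells (to 0.63) and by 0.57 against 48 h (to 0.63), and by -0.01 at 48 h. Relative to the median of all genes, Scd2 at d14 was 5.60 higher on the log2 scale by library size and 5.57 by TMM, and Me1 was -2.24 and -2.24. The TMM factors of the d14 libraries were 1.21 to 1.48, and those of the other libraries 0.846 to 0.912.

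**Figure D4:**
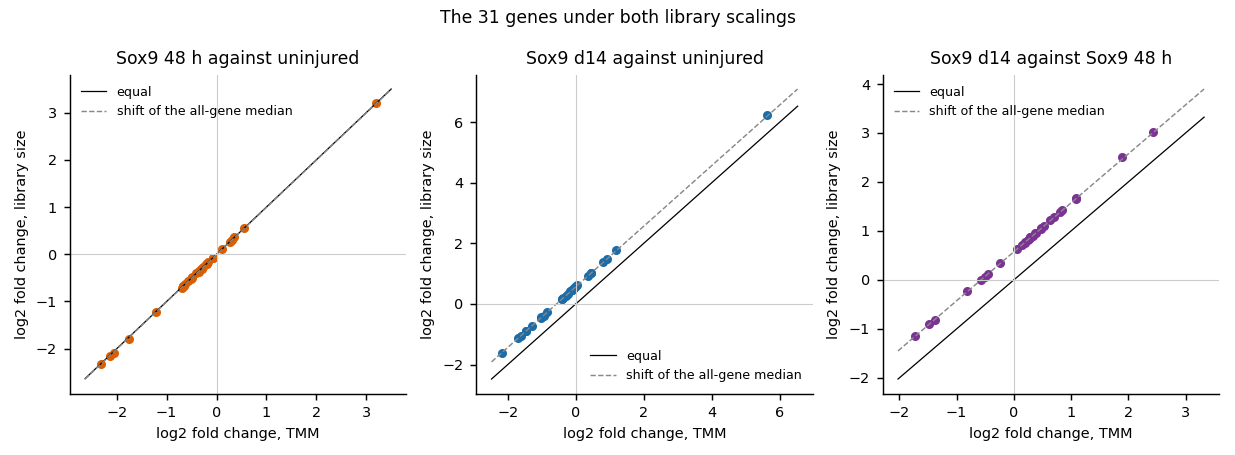
Log2 fold changes of the 31 genes with libraries scaled by size alone (vertical) against TMM (horizontal), 1 panel a comparison. At d14 all points lie near the dashed line, which is the shift of the median of all genes (0.57 in both d14 panels), and at 48 h they lie on the line of equality.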

How the data were processed

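RNA of sorted tdTomato-positive mouse kidney cells was sequenced in 9 libraries of 3 groups. The authors deposited RSEM expected counts per gene, already whole numbers and unscaled. Per the submitters' processing notes, the tools were RSEM 1.2.28, STAR 2.6.1, R 3.6.3, bcl2fastq 2.20 and DESeq2 1.26.0, and the builds mm10 and GRCh38, without their roles. For annotation release and strand setting, the sources used here give nothing. Where near-identical genes share reads, RSEM estimates the division, and such values are less certain.

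The tests used edgeR 4.0.16 (R 4.3.3). The function filterByExpr chose the genes (minimum count 10, minimum total 15), libraries were scaled by TMM, and a quasi-likelihood model with 3 group means was fitted to all 9 libraries across the 15519 genes kept. Adjusted p values are Benjamini-Hochberg over these genes, a call is an adjusted p under 0.05, and ± beside a fold change is its SE. This SE was calculated from the log2 fold change and the F statistic of the test. The test sets a fold change against a spread between libraries that is estimated over all 3 groups and moderated across genes. A gene with 0 counts may have up to 3, which is 0.0651 to 0.431 CPM by library, for counting error only. The script was tested on simulated data. Of the 92 spike-in sequences none had counts.

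The members and lists were chosen with earlier results of these data known. All 31 members are named, and of each other list up to 4 called genes a comparison, those with the smallest p. Single adipocyte markers were named after their values were seen. A list of further sterol and isoprenoid genes is not reported here. Coordinates and exon lengths come from GENCODE M21 (GRCm38), which held 30 of the 31 identifiers in the same version, and promoter windows from RefSeq. Shared sequence is the percentage of 50-base stretches found in transcripts of other genes. Alternatives were RLE size factors, library size alone, no filter, DESeq2 1.42.0, limma 3.58.1 voom with sample weights, 2 groups at a time, a replicate block, mitochondrial genes left out, and each library left out.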

Additional observations from a re-analysis of the deposited data

How the results depend on the processing

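Of the members' calls, 6 of 13 at 48 h, 10 of 14 at d14 and 7 of 13 between the Sox9 groups held in all 18 alternatives. Library size alone changed the d14 counts most, to 13 higher and 6 lower against uninjured cells and 22 and 3 against 48 h. Of all 15519 genes it called 7315 higher and 1417 lower against uninjured cells, and 6812 and 934 against 48 h. It moves the median of all genes by 0.57 in both d14 comparisons. Among genes called on one scale or the other, it turned the sign at d14 against uninjured cells for Lss (0.16), Scap (0.45), Stard4 (0.46), Acly (0.46) and Acaca (0.51). Pmvk (0.93), Msmo1 (1.03), Srebf1 (1.03), Srebf2 (0.62) and Fasn (0.59) kept their sign and were called higher by library size alone but not with TMM. DESeq2 called 2 genes higher at 48 h, adding Elovl6 (adjusted p = 0.0463). With only 2 groups fitted, 8 were lower at 48 h. Leaving out 1 library at a time gave 1 to 2 higher and 7 to 12 lower at 48 h, 4 to 5 higher and 9 to 12 lower at d14, and 5 to 11 higher and 4 to 7 lower between the Sox9 groups. The number lower at 48 h was 7 without uninjured replicate 1 or 3, the number higher at 48 h was 2 without 48 h replicate 3, and the number higher between the Sox9 groups was 5 without d14 replicate 1 or 2. With 48 h replicate 3 as the only 48 h library, an alternative chosen after seeing the data in which it is assumed to vary like the other groups, 5 were higher and 3 lower between the Sox9 groups. The cause of these differences was not tested. Equal replicate numbers did not pair the libraries: their deviations correlated at -0.127 to 0.019 over 9 pairs, against -0.047 to 0.097 for 18 pairs of unequal numbers. With a replicate block, 1 gene was higher and 9 lower at 48 h, 5 and 10 at d14, and 8 and 4 between the Sox9 groups. Scd1 had 3 counts in 48 h replicate 2, the shallowest library.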
